A study of Mus musculus with 70 samples.

Results

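The retinoid genes described here were 9 genes of vitamin A metabolism and signalling, Aldh1a1, Aldh1a2, Aldh1a3, Crabp1, Crabp2, Rbp4, Rarb, Cyp26b1 and Stra6, out of 21154 gene symbols on the array. They were chosen by name: every non-control probe whose transcript belonged to one of them was taken, which gave 11 probes. Rarb had 3 probes and each of the other 8 genes had 1. The cells were RENCA, a mouse renal adenocarcinoma line, made to express GFP with a lentivirus (GFP-RENCA), and they were measured unpassaged (P0) and then following every one of 6 rounds of growth (P1 to P6) in female wild type BALB/c mice, 6 weeks old. KPT lines were implanted under the kidney capsule and recovered from the kidney tumour, T-LM lines were injected into the tail vein and recovered from lung metastases, and K-LM lines were implanted under the kidney capsule and recovered from lung metastases. All passaged groups, and P0, carried the same GFP vector, and no other gene was altered. The arrays read 2 samples of P0, then 5, 2, 2, 3, 5 and 5 samples of KPT from P1 to P6, 5, 2, 3, 4, 6 and 4 of T-LM, and 1, 1, 5, 3, 4 and 3 of K-LM, 65 RNA samples in all on 70 arrays. The methods describe recovered cells grown in culture until GFP-negative cells were no longer seen, whereas the labels name a tumour as the source and describe homogenised samples, so how pure the cells were in each RNA is not settled by the sources.

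Vitamin A travels in blood as retinol bound to Rbp4 and enters cells through the membrane receptor Stra6. Inside the cell retinol is oxidised to retinal, and the aldehyde dehydrogenases Aldh1a1, Aldh1a2 and Aldh1a3 turn retinal into retinoic acid. Crabp1 and Crabp2 bind retinoic acid in the cytoplasm, Crabp2 being known for carrying it to nuclear receptors such as Rarb, and Cyp26b1 hydroxylates it for removal. In the developing kidney, retinoic acid made in stromal cells acts on the neighbouring epithelium. Rarb and Cyp26a1, a relative of Cyp26b1, are textbook target genes of retinoic acid.

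Each value is a level: the log2 processed signal of the gene's probe minus the array's own 75th percentile over the 11289 probes well above background on all arrays, so that 0 is that percentile and a step of 1 is a doubling. Levels were compared between samples for the same gene and never between genes, because probes differ in brightness. "Well above background" is the call of the scanner software, and a sample without that call has only an upper bound. A change was called when its Benjamini-Hochberg adjusted p over all tested probes was 0.01 or less by limma, a linear model fitted to all probes at once. Nothing says that samples of one group came from separate lineages of mice, so p measures the spread between the samples of a fit. Each fit over passages held P0 and P2 to P6 of the route, with P1 added where P1 was compared. All its groups shared 1 estimate of the spread, so passages that were not compared also set the SE. The K-LM fit also held some KPT P6 samples, and the fit between routes at P6 held P0. Samples of one group are numbered as labelled, and T-LM P1 replicate 1 is the sample whose title has no number.

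The share of probes well above background ran from 25.1% to 55.1% of 55681 probes, the highest being in T-LM P1. Both P0 samples, all 3 K-LM P6 samples and KPT P6 replicates 1, 2 and 4 were read on 1 late slide, whose slide, day and software cannot be told apart. The P0 and KPT P6 samples also had an array on another slide. For the 5 RNAs read on both, the late array was lower by up to 1.55 for Rbp4 and 1.49 for Rarb in single RNAs, both dim genes, and the arrays differed by at most 0.5 for Crabp2 and Cyp26b1. P0 levels below average both arrays, the P0 to P6 changes of KPT and T-LM use the earlier arrays alone, and every fit with K-LM P6 has a term for the late slide, so a fitted change can differ from the difference between means.

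Fibroblast markers moved with several of the genes, so they are given first. The summed level of 5 markers (Col1a1, Col1a2, Dcn, Lum and Pdgfra) was -5.35 and -5.13 in P0, from -1.04 to 0.12 in KPT P6, from 1.02 to 2.79 in T-LM P6 and from -0.06 to 1.59 in K-LM P6. At P1 it ran from -1.45 to 3.48 in KPT, was -1.13 in T-LM replicate 1 against 2.54 to 4.05 in the other 4 T-LM samples, and was 4.26 in the only K-LM sample. At P5 it reached 4.73 and 2.76 in KPT replicates 1 and 2 and 5.44 in T-LM replicate 1, while the other P5 samples lay between -1.32 and 2.06. In P0, Lum and Pdgfra were not well above background in either sample. Neither was Pdgfra in any KPT P6 sample or Lum in any K-LM P6 sample. From P0 to P6 the fitted change of Lum was 0.18 in KPT and -0.07 in K-LM, without a call. The sums in KPT P6 and K-LM P6 thus rested mainly on Col1a1, Col1a2 and Dcn. Lung epithelial markers (Sftpc, Sftpb, Sftpa1, Scgb1a1) also summed higher in T-LM P6, from -3.05 to -0.55, than in P0 (-5.78 and -5.52), KPT P6 (-5 to -4.7) and K-LM P6 (-4.06 to -3.33). Mesothelial markers (Msln, Upk3b, Lrrn4, Wt1) summed to 0.84 to 1.22 in T-LM P6, against -0.43 to -0.23 in KPT P6. Of these 4 genes only 2 to 3 were well above background in a T-LM P6 sample and 2 in a KPT P6 sample. Wt1 is also part of the K-LM signature reported in the paper. The labelled kidney carcinoma had its epithelial markers throughout: of 7 kidney epithelial genes 3 to 6 were well above background in every sample, with a summed level of 3.55 to 4.64, although Pax2, one of the 7, was not above background in any sample. In bulk RNA, fewer cells of one type and less RNA per cell cannot be told apart.

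The 9 genes fell into 3 patterns of detection. Crabp2 was well above background in 65 of 65 RNA samples, Stra6 in 64 and Cyp26b1 in 63, the remaining 1 and 2 having no usable spot rather than a dim one. Aldh1a2 was above background in 34 samples, Aldh1a1 in 33, Rbp4 in 22 and Rarb in 16. Aldh1a3 passed in 5 samples and Crabp1 in 2. None of Aldh1a1, Aldh1a2, Aldh1a3, Crabp1, Rbp4 and Rarb was above background in either P0 sample.

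**Figure D1:**
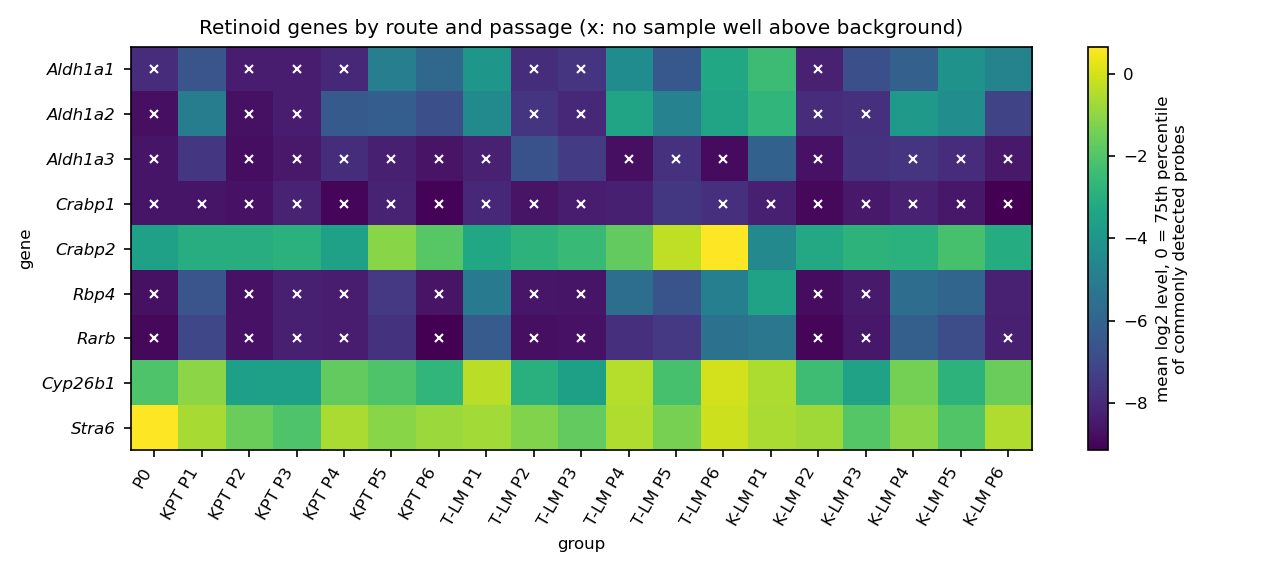
Mean log2 level of each retinoid gene (rows) in each of the 19 groups (columns), with 0 at the 75th percentile of commonly detected probes; colours are to be compared along a row, and a cross marks a group where no sample was well above background. Crabp2 was highest in T-LM P6 (0.65), and Aldh1a1, Aldh1a2, Rbp4 and Rarb had crosses in P0 and P2 of every route.

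Crabp2, the binding protein that carries retinoic acid to its receptors, climbed passage by passage in T-LM. Its level was -3.04 and -4.02 in the 2 samples of P0. In T-LM P6 it was 0.76, 0.27, 0.79 and 0.77, above both P0 samples and above every KPT P6 and K-LM P6 sample. The 5 samples of KPT P6 read -1.97, -1.78, -1.89, -1.82 and -2.01, a narrow band above P0. K-LM P6 read -3.24, -2.89 and -3.13, which overlapped P0.

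The T-LM mean of Crabp2 went from -3.27 ± 0.59 (SD, n = 5) at P1 through -2.83 ± 0.19 (n = 2) at P2, -2.55 ± 0.51 (n = 3) at P3, -1.68 ± 0.67 (n = 4) at P4 and -0.28 ± 0.45 (n = 6) at P5 to 0.65 ± 0.25 (n = 4) at P6. From P1 to P4 each passage overlapped with the one before it, all P5 samples (-0.79 to 0.27) lay above all P4 samples (-2.55 to -1.12), and the highest P5 sample and the lowest P6 sample both read 0.27. In KPT the gene stayed between -4 and -2.43 from P1 to P4, then read 1.36, -0.62, -2.33, -2.21 and -1.71 at P5, and the 2 highest P5 values came from the replicates with the highest fibroblast marker sums. In K-LM its group means lay between -4.54 (P1, 1 sample) and -2.2 (P5), with no steady course.

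Crabp2 and the fibroblast markers went apart in some samples and together in others. The T-LM P1 replicates 3, 4 and 5, with marker sums of 3.53, 4.05 and 3.69, read -3.56, -3.82 and -3.64 for Crabp2, below every T-LM P6 sample although the T-LM P6 marker sums (1.02 to 2.79) were lower. K-LM P1, with a marker sum of 4.26, had the lowest Crabp2 level of all samples (-4.54). In KPT P5, by contrast, replicates 1 and 2, with marker sums of 4.73 and 2.76, had the highest Crabp2 levels of the route (1.36 and -0.62). Over the 65 samples the correlation of Crabp2 with the marker sum was 0.38 (Pearson r, a description over samples that share passages and slides). The part of fibroblast, lung epithelial or mesothelial RNA in the Crabp2 levels was not tested.

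Crabp1, the other cytoplasmic binder of retinoic acid, was near the floor. It was well above background in T-LM P4 replicate 2 (-6.37) and T-LM P5 replicate 1 (-4.58), and in no other sample, with the remaining samples between -9.58 and -6.97.

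Aldh1a1 and Aldh1a2, both retinal dehydrogenases, were silent or dim in P0 and high in T-LM P6. Aldh1a1 read -7.83 and -8.03 in P0, neither well above background. Its 4 T-LM P6 samples read -3.27, -2.13, -3.86 and -3.84, all well above background. The KPT P6 samples read -7.92, -5.09, -4.59, -6.83 and -4.77, 4 of 5 above background and spread widely, and K-LM P6 read -5.17, -6 and -3.17, all above background. Every T-LM P6 sample lay above every KPT P6 sample, while K-LM P6 overlapped both.

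Aldh1a2, the enzyme that makes most retinoic acid in embryonic mesenchyme and in mesothelium, read -9.09 and -8.45 in P0. In T-LM P6 it read -3.1, -2.4, -3.8 and -4.4. The KPT P6 samples read -7.59, -6.75, -5.97, -7.05 and -6.55, with 1 of 5 well above background, and K-LM P6 read -7.8, -7.92 and -5.75, with 1 of 3. T-LM P6 did not overlap with either of the other routes.

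These 2 enzymes did not climb steadily. Aldh1a2 means in T-LM were -4.51 ± 2.5 at P1 (n = 5), -7.64 ± 1 at P2 (n = 2), -8.02 ± 1.4 at P3 (n = 3), -3.42 ± 0.93 at P4 (n = 4), -4.82 ± 1.4 at P5 (n = 6) and -3.42 ± 0.87 at P6 (n = 4). In K-LM they were -2.7 at P1 (1 sample), -7.9 at P2 (1 sample), -7.83 ± 0.61 at P3 (n = 5), -3.86 ± 3 at P4 (n = 3), -4.36 ± 0.79 at P5 (n = 4) and -7.16 ± 1.2 at P6 (n = 3). No P2 or P3 sample of any route was well above background for Aldh1a2, so the gene was detectable after the first passage, undetected in the next 2 groups, and detectable again from P4. Aldh1a1 in T-LM was also undetected at P2 and P3, and it was above background in 4 of 4 samples at P4 but 1 of 6 at P5 (replicate 1), where Aldh1a2 was in 5 of 6. Its means were -3.96 ± 2.5 at P1, -7.86 ± 0.19 at P2, -7.64 ± 0.63 at P3, -4.39 ± 0.97 at P4, -6.44 ± 1.4 at P5 and -3.28 ± 0.81 at P6. In KPT it differed, with no sample above background from P2 to P4 and means of -4.97 ± 2.2 at P5 and -5.84 ± 1.5 at P6 (n = 5 each).

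The summed fibroblast markers had the same low passages, and the correlation with them over 65 samples was 0.91 for Aldh1a2 and 0.67 for Aldh1a1 (a description). T-LM P1 replicate 1, whose marker sum was far below the other T-LM P1 samples, read -8.94 for Aldh1a2 and -7.66 for Aldh1a1, against -3.73 to -2.61 and -5.49 to -1.69 in the other 4. The part of fibroblast RNA in these levels was not tested. Aldh1a3, the third enzyme of the group, was well above background in KPT P1 replicate 5 (-5.52), T-LM P2 replicate 3 (-4.59), T-LM P3 replicate 3 (-5.38), K-LM P1 (-6.12) and K-LM P3 replicate 2 (-4.84), never in more than 1 sample of a group.

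Rbp4, the retinol carrier of blood plasma, and Rarb, a nuclear receptor for retinoic acid, were undetected in P0 and again in KPT P6. Rbp4 read -9.05 and -8.38 in P0 and -4.75, -4.56, -4.86 and -5.53 in T-LM P6. All 4 T-LM P6 samples were well above background, as was 1 of 3 in K-LM P6 (-9.09, -9.21 and -6.5), and none of 5 in KPT P6 (-8.91, -8.9, -8.67, -8.37 and -8.46). Rarb read -9.22 and -8.64 in P0 and -5.1, -4.37, -5.9 and -6.49 in T-LM P6, where 3 of 4 were well above background. In KPT P6 it read -9.04, -9.23, -9.25, -9.5 and -8.71 and in K-LM P6 -8.22, -9.26 and -7.43, with no sample above background in either. For both genes T-LM P6 did not overlap with KPT P6 or K-LM P6.

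At P1 the K-LM sample read -3.5 for Rbp4 and -5.26 for Rarb, the highest group levels of either gene. Rbp4 was above background in 4 of 5 T-LM P1 samples (-4.8 to -3.29, and -8.76 in replicate 1) and 2 of 5 in KPT P1 (-3.88 and -4.15). Their correlation with the fibroblast marker sum was 0.86 for Rbp4 and 0.78 for Rarb over 65 samples, and with each other 0.91. The other 2 Rarb probes were well above background on 1 array and on none of 70, so all Rarb values rest on 1 probe.

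Rarb is shown with its promoter because it and Cyp26a1, a gene of the wider pathway described further on, are known retinoic acid targets, and because among the members, Dhrs3 and Cyp26a1 these were the 2 with a direct repeat of the kind that retinoic acid receptors bind. The windows, from RefSeq annotation of build GRCm38.p6, run from 250 bases before to 50 bases after the transcript start and are printed 5′ to 3′ in the direction of the gene. Rarb lies at chr14:16575427-16575726 on the minus strand and Cyp26a1 at chr19:37697558-37697857 on the plus strand. Capitals mark the repeat, which is 2 half-sites of the same direction 5 bases apart (the half-site searched was AGGTCA or, in its place, AGTTCA or else GGGTCA or else GGTTCA, on both strands).
Rarb: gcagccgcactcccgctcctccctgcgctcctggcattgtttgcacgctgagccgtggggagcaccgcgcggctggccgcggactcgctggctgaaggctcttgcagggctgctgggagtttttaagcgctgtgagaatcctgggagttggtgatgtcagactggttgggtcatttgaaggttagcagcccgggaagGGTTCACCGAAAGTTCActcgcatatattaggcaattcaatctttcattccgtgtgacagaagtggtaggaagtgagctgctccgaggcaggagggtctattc
Cyp26a1: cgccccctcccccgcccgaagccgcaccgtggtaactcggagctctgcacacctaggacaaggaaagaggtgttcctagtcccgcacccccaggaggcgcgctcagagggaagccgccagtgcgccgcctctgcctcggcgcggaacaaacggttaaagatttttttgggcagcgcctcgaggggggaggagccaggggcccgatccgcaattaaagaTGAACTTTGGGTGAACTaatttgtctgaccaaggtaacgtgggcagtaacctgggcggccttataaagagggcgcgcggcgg
The repeat begins 53 bases before the start of Rarb and 32 bases before that of Cyp26a1, where it lies on the opposite strand. It was present in 32 of 32851 promoter windows of the same length (0.0974%). Of the 9 genes, 7 had a window, 12 windows in all, and among them Rarb was the only one with this repeat or with the same half-sites 1 or 2 bases apart. A match of letters describes these windows and is not evidence that a receptor was bound in these cells.

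Cyp26b1, which hydroxylates retinoic acid, was already well above background in P0, at -1.9 and -2.23. In T-LM P6 the 3 samples with a usable spot read -0.31, 0.33 and -0.05, above every sample of the other P6 groups. KPT P6 read -3.07, -2.57, -2.51, -2.77 and -2.51, below both P0 samples, and K-LM P6 read -1.57, -2 and -1.16, overlapping P0. The same rise and fall over passages seen for Aldh1a2 was present in T-LM, with means of -0.37 ± 0.91 at P1 (n = 5), -2.91 ± 0.11 at P2 (n = 2), -3.59 ± 1.3 at P3 (n = 3), -0.45 ± 0.69 at P4 (n = 4), -2.2 ± 0.56 at P5 (n = 6) and -0.01 ± 0.32 at P6 (n = 3). In KPT the means were -1.04 ± 0.45 at P1 (n = 5), -3.62 ± 0.62 and -3.61 ± 0.59 at P2 and P3 (n = 2 each), -1.7 ± 0.78 at P4 (n = 3), -2.05 ± 0.58 at P5 and -2.69 ± 0.24 at P6 (n = 5 each). Its correlation with the fibroblast marker sum was 0.66 over 63 samples.

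**Figure D2:**
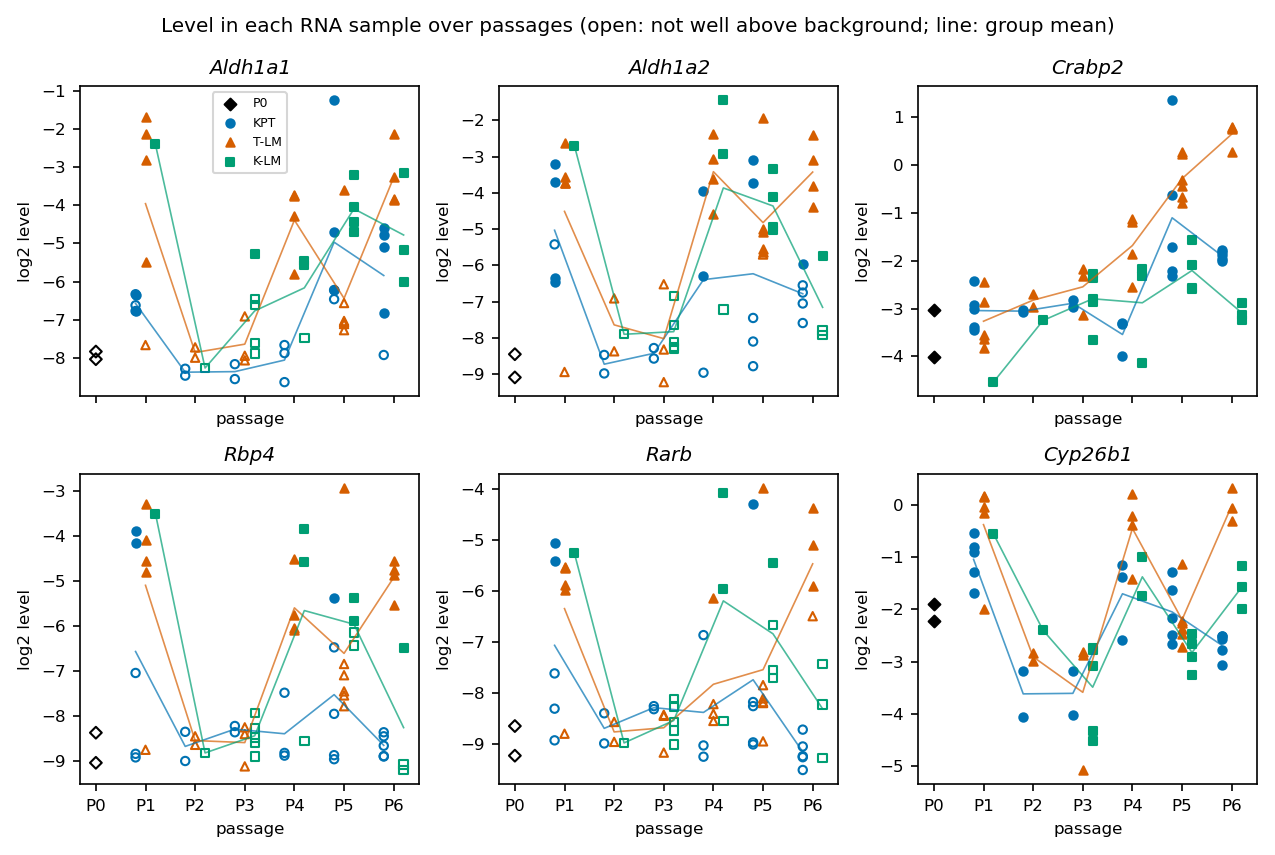
Log2 level (vertical axis) against passage (horizontal axis) for 6 retinoid genes, 1 point per RNA sample, by route, with open symbols for samples not well above background and lines through group means. In T-LM, Crabp2 went from a mean of -3.27 at P1 to 0.65 at P6, whereas Aldh1a1, Aldh1a2, Rbp4, Rarb and Cyp26b1 were low at P2 and P3 and high at P1 and P6.

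Stra6, the membrane receptor for Rbp4, had its highest group level in P0 (0.77 and 0.56). T-LM P6 read -0.13, -0.21, 0.27 and -0.22, KPT P6 -1.02, -0.89, -0.96, -0.76 and -0.51, and K-LM P6 -0.57, -0.38 and -0.54, so P0 lay above all passaged samples of the last passage. P0 and T-LM P6, the top 2 groups, did not overlap. The lowest means were -2.05 ± 0.79 in KPT P3 (n = 2), -1.99 ± 0.35 in K-LM P5 (n = 4) and -1.94 ± 1.2 in K-LM P3 (n = 5). Its correlation with the fibroblast marker sum was 0.01 over 64 samples. For the other 8 genes, when the 19 groups were put in order of their means, no pair of neighbours with at least 2 samples each was free of overlap, so their orders fix only the distant groups.

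The change from P0 to P6 asks what differed between the unpassaged line and the end of each route. In T-LM, Crabp2, Aldh1a1 and Aldh1a2 were called higher, 3 of 9 genes tested, where 7.31% of all probes were called. Aldh1a1 and Aldh1a2 passed the filter on dim probes only through P4 to P6 samples, so this count leans on the later groups. Crabp2 rose by 4.23 ± 0.41 on the log2 scale (SE; 18.7-fold, adjusted p = 4.73e-07). Aldh1a1 rose at least 10.5-fold (fitted log2 change 4.58 ± 0.81, adjusted p = 0.000591) and Aldh1a2 at least 9.45-fold (4.78 ± 0.92, adjusted p = 0.00128), both given as bounds because P0 was not above background. Rbp4 (3.09 ± 0.9, at least 3.35-fold, adjusted p = 0.0276), Rarb (2.79 ± 0.97, at least 2.3-fold, adjusted p = 0.0691) and Cyp26b1 (2.17 ± 0.58, adjusted p = 0.017) were not called, though their T-LM P6 samples did not overlap with P0. Of the 5 fibroblast markers 4 were called higher in the same comparison, with a median change over the 5 of 7.31, and their part in the result was not tested.

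With only 2 P0 samples, the Aldh1a1 and Aldh1a2 calls rested on both: without P0 replicate 1 their adjusted p was 0.0126 and 0.0332, and without P0 replicate 2 it was 0.0131 and 0.0141. Crabp2 was called without either, and in every alternative run for it, with changes of 3.69 to 4.77.

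In KPT and K-LM no member was called from P0 to P6, of 5 and 7 tested, with 3.88% and 4.84% of all probes called. At an unadjusted p under 0.05 there were 2 genes in each, beside 18.3% of all probes in KPT and 20.1% in K-LM. Aldh1a1 changed by 2.07 ± 1.1 in KPT (adjusted p = 0.344) and 3.25 ± 0.82 in K-LM (adjusted p = 0.0125), and the K-LM value passed without K-LM P6 replicate 2 (3.86, adjusted p = 0.00685). Crabp2 changed by 1.62 ± 0.68 in KPT and 0.36 ± 0.45 in K-LM. Stra6 had fitted changes below 0 in all 3 routes, -1.57 ± 0.41 for KPT, -0.7 ± 0.51 for T-LM and -1.29 ± 0.52 for K-LM, without a call. With only the compared groups in the fit, Stra6 was called lower in KPT (adjusted p = 0.000526) and K-LM (-1.2, adjusted p = 0.00109). Crabp2 was then called higher in KPT (SE 0.255, adjusted p = 0.00182). The share of all probes called there was 7.13% in KPT and 9.98% in K-LM. The late slide alone gave the same calls, with shares of 8.31% and 14.7%. In the other 16 of 18 alternative runs for KPT no member was called. The 3 routes share the P0 samples, so these comparisons are not independent of one another.

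From P3 to P6, T-LM again held most of the calls: 5 of 9 genes, all higher, with 7% of all probes called. Aldh1a1, Aldh1a2, Rbp4 and Rarb were above background in no P0, P2 or P3 sample of this fit. They passed the filter on dim probes only through P4 to P6, so the count leans on the later groups. In KPT, Rbp4, Rarb, Aldh1a3 and Crabp1 did not pass it and were not tested, so the counts of the routes are not alike. Of the 5 fibroblast markers 4 were called higher too, with a median change of 4.56 and summed levels of -3.06 to -0.81 at P3 against 1.02 to 2.79 at P6, and their part in the result was not tested. Aldh1a2 rose at least 8.7-fold (log2 change 4.59 ± 0.81, adjusted p = 0.000721), Aldh1a1 at least 9.54-fold (4.36 ± 0.71, adjusted p = 0.000358) and Rbp4 at least 3.08-fold (3.67 ± 0.79, adjusted p = 0.00388). Cyp26b1 rose 12-fold (3.58 ± 0.52, adjusted p = 0.00014) and Crabp2 9.16-fold (3.19 ± 0.36, adjusted p = 7.29e-06). Rarb changed by 3.21 ± 0.85 (adjusted p = 0.0161) and was not called. Without T-LM P3 replicate 2, the lowest Cyp26b1 sample, the Cyp26b1 change was 2.83 (adjusted p = 0.000432). The Rbp4 call was lost when any 1 of 6 of the 7 P3 and P6 samples was left out (T-LM P3 replicates 2, 3 and 5 and T-LM P6 replicates 1, 2 and 3; adjusted p 0.0109 to 0.0148), while the change stayed between 3.41 and 3.88.

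In K-LM, Cyp26b1 was the only one of 7 called from P3 to P6, 3.34-fold higher (1.74 ± 0.4, adjusted p = 0.00895, 3.53% of all probes called). That call was lost without K-LM P3 replicates 4 or 5 or without any 1 of the 3 K-LM P6 samples (adjusted p 0.0173 to 0.0453, change 1.48 to 1.95). Aldh1a1 changed by 2.18 ± 0.75 there (adjusted p = 0.0546). In KPT none of 5 was called by limma (0.715% of all probes called) and 3 had an unadjusted p under 0.05 (22.6% of all probes), and Aldh1a1 changed by 2.58 ± 1.1 (adjusted p = 0.176).

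The first passage from P0 to P1 gave no call among 7 genes tested in KPT and 9 in T-LM, with 4.41% and 2.56% of probes called. At an unadjusted p under 0.05 there were 3 genes in KPT and 5 in T-LM, beside 27.3% and 25.7% of all probes. Aldh1a2 changed by 3.18 ± 1.3 in KPT (adjusted p = 0.13). In T-LM the changes were 3.89 ± 1.1 for Aldh1a1 (adjusted p = 0.036), 3.7 ± 1.2 for Aldh1a2 (adjusted p = 0.0548) and 2.92 ± 1.1 for Rbp4 (adjusted p = 0.0943). Without T-LM P1 replicate 1, the sample of low fibroblast marker level, 8.18% of all probes and 4 of the genes were called there: Aldh1a1 (4.82, adjusted p = 0.00111), Aldh1a2 (4.8, adjusted p = 0.000627), Rbp4 (3.83, adjusted p = 0.00401) and Cyp26b1 (2.21, adjusted p = 0.00515).

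From P1 to P6, Crabp2 was the only one of 9 genes called in T-LM, 15-fold higher (3.91 ± 0.33, adjusted p = 3.76e-08), with 9.28% of all probes called. The other 8 had fitted changes of -0.63 to 1.08. In KPT, Cyp26b1 alone of 7 was called, 3.23-fold lower (-1.69 ± 0.31, adjusted p = 0.000623, 11.6% of probes called). Both calls were kept in every alternative run for them, with changes of 3.77 to 4.12 for Crabp2 and -1.85 to -1.54 for Cyp26b1. None of the 5 fibroblast markers was called in T-LM from P1 to P6, with changes of -0.51 to 2.57, or in KPT, with changes of -2.17 to -0.26. Other marker sums did move in T-LM: the lung epithelial sum was -6.33 to -4.7 at P1 and -3.05 to -0.55 at P6, and the mesothelial sum -1.6 to -0.03 at P1 and 0.84 to 1.22 at P6, without overlap. Their part in the Crabp2 change was not tested.

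The routes differed most clearly at P6. Aldh1a1, Aldh1a2, Crabp2, Cyp26b1, Rbp4, Rarb and Stra6 were higher in T-LM than in KPT, where 11.5% of all probes were called in either direction. Of the 9 genes, Aldh1a3 and Crabp1 did not pass the filter on dim probes and were not tested. Rarb passed only through T-LM P6 (above background in 3 of 4 samples there and in none of KPT P6 or K-LM P6), and Rbp4 through all 4 T-LM P6 samples and 1 of K-LM P6, so the count of tested genes called leans on the group where they were high. Crabp2 was 6.04-fold higher (2.59 ± 0.18, adjusted p = 9.8e-09), Cyp26b1 6.69-fold (2.74 ± 0.21, adjusted p = 6.51e-08) and Aldh1a2 9.28-fold (3.21 ± 0.45, adjusted p = 4.03e-05). For Aldh1a2 only 1 of 5 KPT P6 samples was well above background, so that fold rests mostly on values that are only upper bounds. Rbp4 was at least 3.9-fold higher (3.49 ± 0.43, adjusted p = 1.18e-05) and Rarb at least 2.68-fold (3.41 ± 0.38, adjusted p = 3.64e-06), since KPT P6 was not above background for either. Aldh1a1 was 5.93-fold higher (2.57 ± 0.65, adjusted p = 0.00898) and Stra6 1.79-fold (0.84 ± 0.15, adjusted p = 0.000378). In this comparison the fibroblast markers had 5 of 5 genes called higher in T-LM, by 1.98 to 3.75, and their part was not tested. The Aldh1a1 call was lost without KPT P6 replicates 1 or 4 or any 1 of the 4 T-LM P6 samples (adjusted p 0.0128 to 0.0397). The other 6 calls were kept without any single sample.

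K-LM stood apart from T-LM at P6 although both were recovered from lung. The fibroblast markers ran lower in K-LM as well, with a median change of -1.25 and 1 of 5 called (Lum, -4.27, adjusted p = 1.23e-05), and the other 4 had changes of -1.29 to -0.52. The lung epithelial sum was -4.06 to -3.33 in K-LM P6 against -3.05 to -0.55 in T-LM P6, and the mesothelial sum -0.53 to -0.04 against 0.84 to 1.22, without overlap. The part of these markers in the result was not tested. Crabp2 was 15-fold lower in K-LM than in T-LM (-3.91 ± 0.24, adjusted p = 7.65e-09), Aldh1a2 8.6-fold lower (-3.1 ± 0.61, adjusted p = 0.00143), Rbp4 5.95-fold lower (-2.57 ± 0.59, adjusted p = 0.00448) and Cyp26b1 3.21-fold lower (-1.68 ± 0.27, adjusted p = 0.000316), 4 of 7 with 11.9% of all probes called. The Rbp4 call was lost without K-LM P6 replicates 1 or 2 or T-LM P6 replicates 1 or 2 (adjusted p 0.0108 to 0.0269). Counting these, it was lost in 8 of 16 alternative runs, and the change ran from -3.46 to -1.23. Only 1 of 3 K-LM P6 samples was well above background for Aldh1a2, and likewise for Rbp4. Both folds therefore rest in part on values that are only upper bounds. Rarb (-1.97 ± 0.52, adjusted p = 0.0109), Stra6 (-0.64 ± 0.2) and Aldh1a1 (-1.02 ± 0.89) were not called. All K-LM P6 arrays lay on the late slide, so this difference and the late slide are told apart only through the 5 RNAs read on both.

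Between K-LM and KPT, Crabp2 was 2.49-fold lower in K-LM (-1.31 ± 0.2, adjusted p = 0.00014) and Cyp26b1 2.08-fold higher (1.06 ± 0.22, adjusted p = 0.00187), 2 of 7 genes with 16% of all probes called. Crabp2 therefore ran T-LM, KPT, K-LM from high to low with no overlap between routes, and Cyp26b1 ran T-LM, K-LM, KPT, also with no overlap. The Cyp26b1 call was lost without K-LM P6 replicate 3 (0.85, adjusted p = 0.0149).

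**Figure D3:**
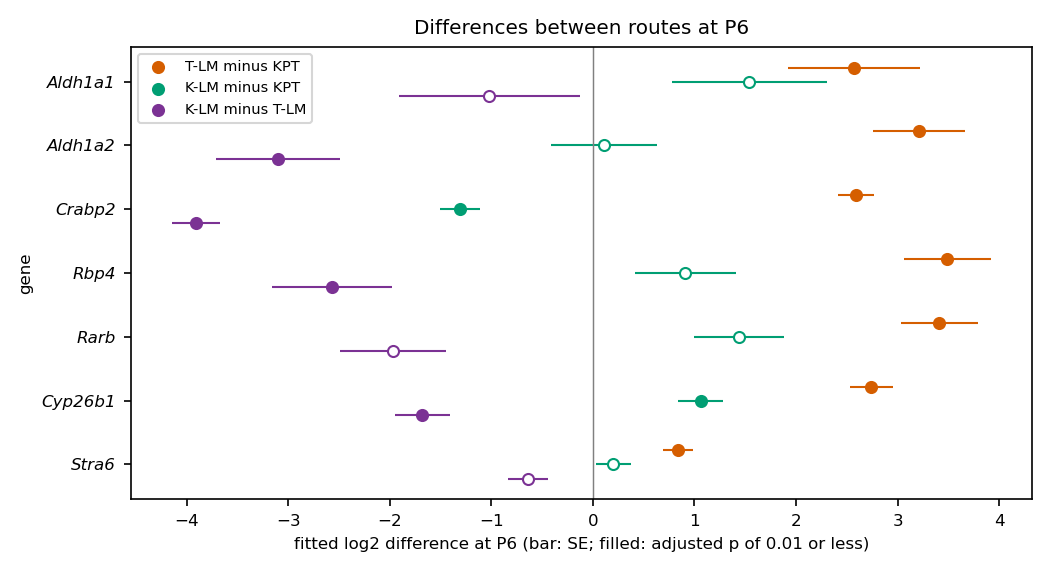
Fitted log2 difference between routes at P6 (horizontal axis, bars are SE) for the 7 retinoid genes tested (vertical axis), with filled symbols for an adjusted p of 0.01 or less. All 7 were filled and above 0 for T-LM minus KPT, from 0.84 for Stra6 to 3.49 for Rbp4, while K-LM minus T-LM was below 0 for all 7 and filled for 4.

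At P5 none of the 7 genes was called between any pair of routes, with 5.42% of probes called for KPT against T-LM, 7.4% for KPT against K-LM and 3.42% for T-LM against K-LM. At an unadjusted p under 0.05 there were 0, 2 and 3 genes, beside 29.2%, 32.7% and 27.8% of all probes. Aldh1a1 was higher in K-LM than in T-LM by 2.34 ± 0.93 (adjusted p = 0.113). The other P5 differences lay between -1.92 and 1.87. Crabp2 samples of K-LM P5 (-2.59 to -1.56) lay below all 6 of T-LM P5 (-0.79 to 0.27), a difference of -1.92 ± 0.56 that was not called (adjusted p = 0.0392). When KPT P5 replicates 1 and 2 and T-LM P5 replicate 1, the samples with a fibroblast marker sum above 2.5, were left out, a choice made after seeing the data, 3 genes were called for KPT against T-LM and 4 for each of the other pairs. The share of all probes called rose as well, to 12.1% for KPT against T-LM, 15.7% for KPT against K-LM and 9.22% for T-LM against K-LM. Aldh1a2 (2.72), Crabp2 (1.7) and Rbp4 (1.25) were then higher in T-LM than in KPT. Against KPT, K-LM was higher for Aldh1a2 (3.75), Rbp4 (2.64) and Aldh1a1 (1.61) and lower for Stra6 (-1.18). Against T-LM, K-LM was higher for Aldh1a1 (2.91) and Rbp4 (1.39) and lower for Crabp2 (-1.82) and Stra6 (-0.8). The samples were left out by a marker sum that itself went with Aldh1a2 and Rbp4. The remaining sums were -1.32 to -0.82 in KPT P5, 0.61 to 1.66 in T-LM P5 and 0.81 to 2.06 in K-LM P5. KPT P5 thus still lay below both other routes, so these counts do not set the markers aside.

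**Figure D4:**
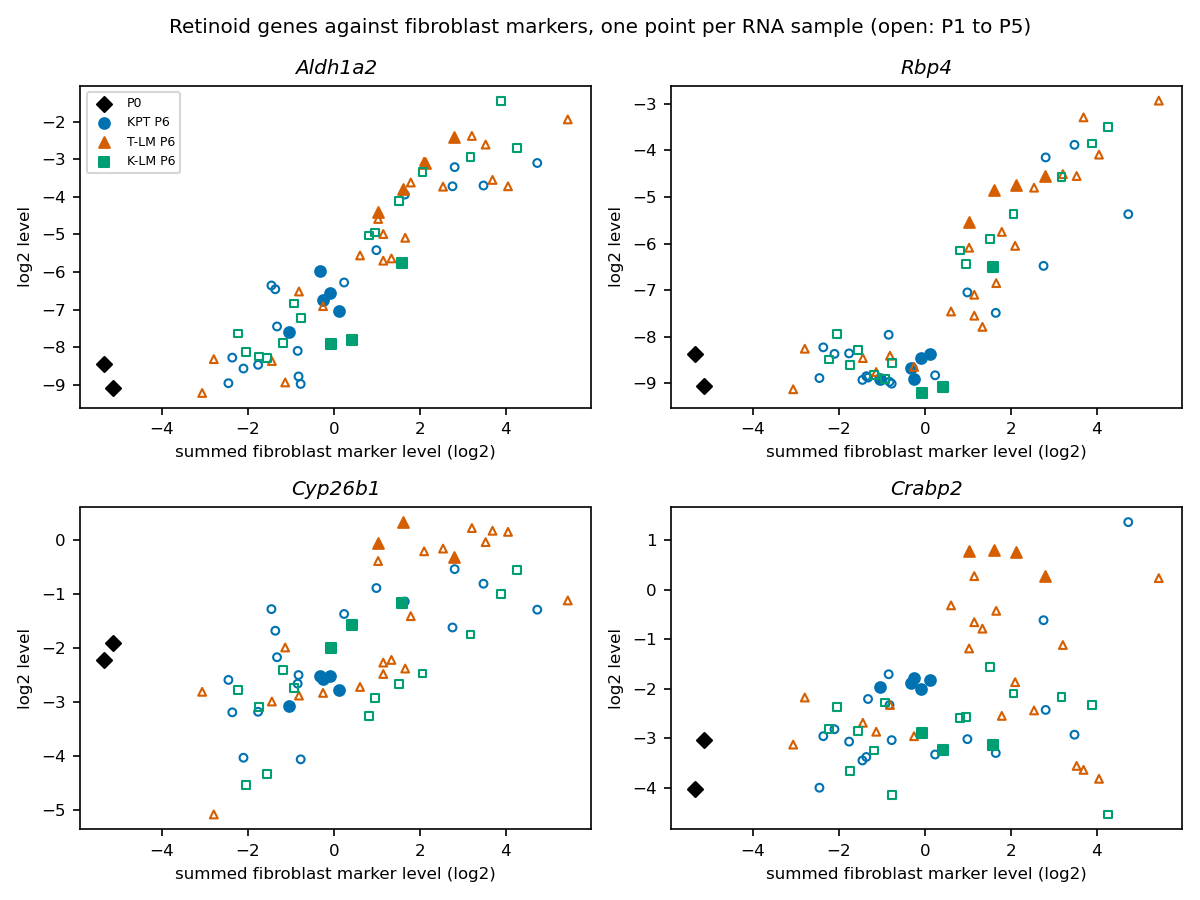
Log2 level of 4 retinoid genes (vertical axis) against the summed log2 level of 5 fibroblast markers (horizontal axis), 1 point per RNA sample, filled for P0 and P6 and open for P1 to P5, by route. Aldh1a2 and Rbp4 went with the marker sum (r of 0.91 and 0.86 over 65 samples), while Crabp2 (0.38) was higher in T-LM P6 than in T-LM P1 samples with larger sums.

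The genes whose levels were most like those of the 4 members with the widest range were found by Pearson correlation over 65 samples among 11892 symbols. For Aldh1a2 they included Wtip (0.95) and Plxdc2 (0.95). For Rbp4 they were Nck2, Pdgfra and Lama4 (0.96 each), of which Pdgfra is one of the 5 fibroblast markers. For Aldh1a1 they were Ndrg2 (0.77), Col4a1 (0.76) and Btg3 (0.76). For Crabp2 they were Dhrs3 (0.73), which reduces retinal to retinol, Ctag2l2 (0.72) and Il1rl1 (0.7). The samples share passages, routes and slides, so these are descriptions.

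Of 46 other genes of retinoid transport, oxidation, breakdown, receptors and response, 6 of 32 tested were higher in T-LM P6 than in P0 and none lower, with 7.31% of all probes called. The largest fitted changes were those of Dhrs3 (log2 change 8.79 ± 0.71, adjusted p = 5.72e-08) and Fabp5 (at least 91.7-fold, 7.81 ± 1.3, adjusted p = 0.000336). Fabp5 is a fatty acid binding protein that also takes up retinoic acid. The median over the 32 was 0.21, against 0 over all probes. Dhrs3 read -5.69 and -7.89 in P0, the second not well above background, and 2.33, 1.81, 1.87 and 1.99 in T-LM P6, -1.1, -0.95, -0.84, -0.52 and -0.35 in KPT P6 and -2.26, -2.89 and -2.48 in K-LM P6. It was the only one of 30 called in KPT (log2 change 6.06 ± 0.47, adjusted p = 2.06e-07, 3.88% of all probes called), and 1 of 4 called of 32 in K-LM (4.27 ± 0.77, adjusted p = 0.000719, 4.84% of all probes called), where Fabp5 (at least 6.66-fold, adjusted p = 0.000922) and Adh1 (3.09-fold, adjusted p = 0.00277) were also higher. Without P0 replicate 2 the K-LM calls of Dhrs3 and Adh1 were lost (adjusted p = 0.0624 and 0.173), and the Adh1 call also without K-LM P6 replicates 1 or 3 (0.013 and 0.0123), and the Fabp5 call without P0 replicate 1 or 2 (0.0259 and 0.0124). In T-LM the Fabp5 call was lost without P0 replicate 1 (adjusted p = 0.0114), while the Dhrs3 call was kept without any single sample. The size of the Dhrs3 change rested on the P0 samples: it was 9.82 in T-LM and 7.09 in KPT without P0 replicate 1, and 7.77 and 5.04 without P0 replicate 2, the sample not above background. In K-LM it was 5.39 and 3.15.

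Dhrs3 was higher than P0 already at P1, by 3.96 ± 0.67 in KPT (adjusted p = 0.000876) and 4.75 ± 0.67 in T-LM (adjusted p = 0.000169). From P1 to P6 in T-LM it rose a further 16.5-fold (4.05 ± 0.54, adjusted p = 1.79e-05), and Cyp26a1, which breaks down retinoic acid and is induced by it, rose at least 3.28-fold (2.86 ± 0.42, adjusted p = 5.81e-05). In the same interval Rarres1 was at least 1.56-fold lower (-2.51 ± 0.55, adjusted p = 0.00265), a call lost without T-LM P6 replicate 3 (adjusted p = 0.0104) and a change of -3.13 without T-LM P1 replicate 1, and in all 3 of 33 tested rose and 4 fell (9.28% of all probes called).

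Cyp26a1 was well above background in all 4 T-LM P6 samples (-5.37, -5.24, -5.41 and -5.52), in T-LM P4 replicate 2 (-5.79) and in P0 replicate 1 (-6.4), and in none of the other 59 samples. Its correlation with the fibroblast marker sum was 0.14 and that of Dhrs3 0.63, against 0.9 for Rarres2 and 0.88 for Fabp5. The lung epithelial sum was -3.05 to -0.55 in T-LM P6 and -3.07 in T-LM P4 replicate 2. All other samples had -3.33 or less, P0 replicate 1 having -5.52. The part of lung epithelial RNA in the Cyp26a1 levels was not tested.

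Between routes at P6, 8 of 33 of these genes were higher in T-LM than in KPT and none lower (11.5% of all probes called in either direction), among them Fabp5 (14.6-fold, 3.87 ± 0.53, adjusted p = 3.59e-05) and Rarres2 (12-fold, 3.58 ± 0.37, adjusted p = 1.46e-06), which encodes the secreted protein chemerin. In K-LM against T-LM, 8 were lower and 3 higher (11.9% of all probes called), led by Dhrs3 (22.1-fold lower, -4.46 ± 0.46, adjusted p = 3.16e-06), Rarres2 (13.4-fold lower, -3.74 ± 0.5, adjusted p = 4.5e-05) and Fabp5 (10.1-fold lower, -3.33 ± 0.72, adjusted p = 0.00306), the last lost without K-LM P6 replicates 1 or 2 (0.016 and 0.0178). In K-LM against KPT, 2 were higher and 5 lower, 7 of 33 where 16% of all probes were called, led by Dhrs3 (3.28-fold lower, -1.72 ± 0.39, adjusted p = 0.0036), Meis1 (3.1-fold lower, -1.63 ± 0.17, adjusted p = 2.13e-06) and the receptor Rxra (2.6-fold higher, 1.38 ± 0.17, adjusted p = 1.96e-05). The Dhrs3 call in K-LM against KPT was lost without K-LM P6 replicates 2 or 3 or KPT P6 replicate 4 (adjusted p 0.011 to 0.0219), and within the late slide alone (adjusted p = 0.0399).

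From P3 to P6 in T-LM, 7 of 32 were higher and 1 lower (7% of all probes called), among them Fabp5 (log2 change 7.17 ± 1.1, adjusted p = 0.000298) and Rarres2 (at least 19-fold, 5.06 ± 0.87, adjusted p = 0.000602). Fabp5 was above background in 1 of 3 T-LM P3 samples, replicate 5, and its change was 8.52 without that sample and 6.38 without T-LM P3 replicate 3. In the same interval 1 of 32 was called in K-LM, where 3.53% of all probes were called. In KPT limma called none of 30, with 6 at an unadjusted p under 0.05, beside 0.715% and 22.6% of all probes.

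**Figure D5:**
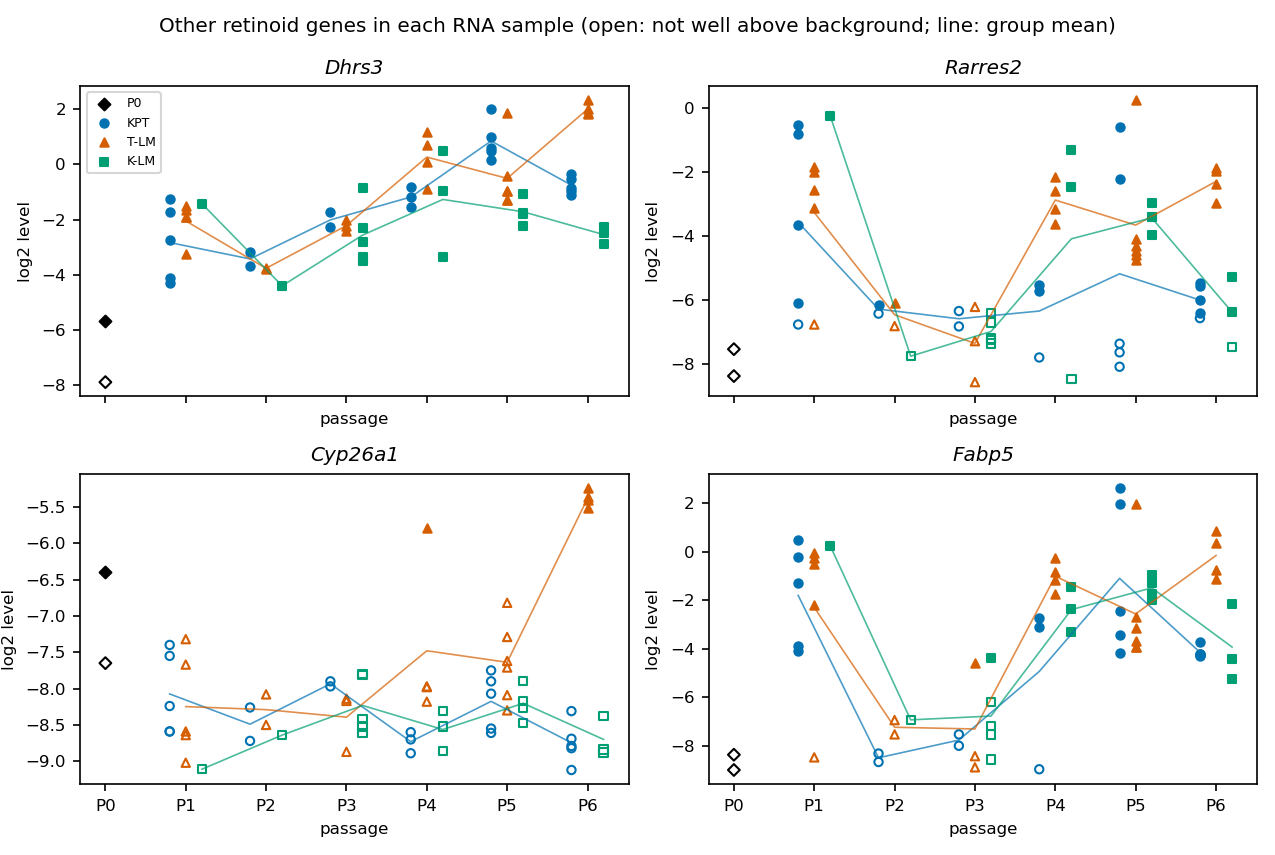
Log2 level (vertical axis) against passage (horizontal axis) for Dhrs3, Rarres2, Cyp26a1 and Fabp5, 1 point per RNA sample, by route, with open symbols for samples not well above background and lines through group means. Cyp26a1 was above background in all 4 T-LM P6 samples (-5.52 to -5.24), and Dhrs3 was highest as a group in T-LM P6 (mean 2).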

How the data were processed

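The authors extracted RNA, labelled it with Cy5 and scanned single-colour Agilent mouse arrays, and the deposited scanner files give a processed signal intensity for each spot. The deposited series values, on a log2 scale, matched the quantile-normalized raw median signal to within 0.105 and served as an alternative. Outlier spots (0.366%) and control spots were left out, spots of one probe were averaged, and the log2 intensity was scaled to each array's 75th percentile. Probes that 2 or more arrays of a fit called well above background were tested, 2-sided, with limma 3.58.1 and statmod 1.5.0 in R 4.3.3, with Benjamini-Hochberg adjustment at 0.01. Fits with K-LM P6 or between routes at P6 had a late-slide term and treated arrays of one RNA as a random block (4000 probes). A fold is "at least" where a group was not above background. The number of arrays limits the precision. In data simulated with a log2 change of 2, 72% of changed probes were recovered from P0 to P6 in T-LM (21055 probes) and 98% for KPT against T-LM at P6 (21696 probes). The members, pathway genes and markers were chosen with earlier results of these data known. All members are named, with changes where called or at least 2, and at most the 3 largest called pathway genes per comparison, except 1 gene that is not reported here. Values outside this, such as Stra6 and Crabp2 changes without a call, Cyp26a1 levels by sample and the sensitivity of named calls, were chosen after the values were seen. Of 16 comparisons, each was rerun with other scaling, background, filter, samples, slide and replicate settings.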

Additional observations from a re-analysis of the deposited data

Results flagged for a closer look

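Of 61 sets of samples (a gene in a group of 4 to 10), 14 had 1 sample far from the others. For independent sets of normally distributed values, chance would give about 1 in 20. These sets share samples, most of the 14 came from T-LM P1 replicate 1 and T-LM P5 replicate 1, and dim genes lie near the floor. The count therefore cannot be weighed against that rate. T-LM P1 replicate 1 was the low sample for Aldh1a2 (-8.94), Rbp4 (-8.76), Rarb (-8.79) and Cyp26b1 (-1.99), and had the lowest fibroblast marker sum of that group (-1.13). T-LM P5 replicate 1 was the high sample for Aldh1a1 (-3.59), Aldh1a2 (-1.94), Rbp4 (-2.93), Rarb (-3.98), Crabp1 (-4.58) and Cyp26b1 (-1.12), and had the highest marker sum of that group (5.44). KPT P5 replicate 1, with a marker sum of 4.73, was high for Rarb (-4.29). The remaining 3 were Rarb in T-LM P4 replicate 2 (-6.14), Aldh1a3 in K-LM P3 replicate 2 (-4.84) and Crabp2 in T-LM P6 replicate 2 (0.27, still above all KPT P6 and K-LM P6 samples). The part of fibroblast RNA in these values was not tested.

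The routes differed at P6 by a test of the difference itself in 13 cases. Of 7 genes tested per pair, 7 were called for T-LM against KPT, 4 for K-LM against T-LM and 2 for K-LM against KPT. The share of all probes called was 11.5%, 11.9% and 16%. Rarb passed the filter on dim probes only through T-LM P6, and Rbp4 through T-LM P6 and 1 sample of K-LM P6. T-LM minus KPT was 2.57 for Aldh1a1, 3.21 for Aldh1a2, 2.59 for Crabp2, 3.49 for Rbp4, 3.41 for Rarb, 2.74 for Cyp26b1 and 0.84 for Stra6 on the log2 scale. K-LM minus T-LM was -3.1 for Aldh1a2, -3.91 for Crabp2, -2.57 for Rbp4 and -1.68 for Cyp26b1. K-LM minus KPT was -1.31 for Crabp2 and 1.06 for Cyp26b1.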

How the results depend on the processing

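Over 295 recounts of the members called in 16 comparisons, 253 stayed within 1.5 times the reported count, 22 fell and 20 rose further, and of 999 recomputed changes of single genes 894 kept their call, 87 lost it, 18 gained it and 0 changed direction. These single genes were picked for a call or an absolute log2 change of at least 2, so a turn of direction was unlikely from the start. The causes of the moved counts and calls were not tested. Moved counts follow, with the share of all probes called in the same run in brackets. In a single model of all groups the count was 0 for KPT to K-LM at P6 (3.84%), 4 for KPT to T-LM at P6 (2.6%) and 1 for T-LM to K-LM at P6 (3.06%). It was 1 for T-LM to K-LM at P5 (2.91%), 1 for P0 to P1 in T-LM (4.5%) and 0 for P3 to P6 in K-LM (6.04%). Testing only probes above background on all arrays leaves few members to test. It gave 1 for KPT to K-LM at P6 (15.9%), 2 for KPT to T-LM at P6 (7.58%) and 1 for T-LM to K-LM at P6 (11%). For P0 to P6 in T-LM it gave 1 (3.4%), for P3 to P6 in T-LM 1 (3.09%) and for P3 to P6 in K-LM 0 (4.49%). No filter gave 0 for P3 to P6 in K-LM (0.562%). With only the compared groups in the fit there were 1 for P0 to P6 in K-LM (9.98%), 2 in KPT (7.13%) and 6 in T-LM (11.3%). There were 2 for P1 to P6 in KPT (11.7%), 1 for P3 to P6 in KPT (4.29%) and 1 for T-LM to K-LM at P5 (2.68%). That setting could not be fitted for P3 to P6 in K-LM or T-LM to K-LM at P6. On the late slide alone P0 to P6 gave 1 in K-LM (14.7%) and 2 in KPT (8.31%), and without the slide term 1 in K-LM (5.46%). With slide as a random block P3 to P6 in K-LM gave 0 (1.98%). For P0 to P6 in T-LM the deposited values gave 5 (7.79%) and a floor on dim values 1 (4.17%). Without the P5 samples of high fibroblast marker level, chosen after seeing the data, the counts were 3 for KPT to T-LM (12.1%), 4 for KPT to K-LM (15.7%) and 4 for T-LM to K-LM (9.22%).

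Leaving out 1 sample gave 0 to 1 for KPT to K-LM at P5, 1 to 3 for KPT to K-LM at P6, 6 to 7 for KPT to T-LM at P6, 3 to 5 for T-LM to K-LM at P6, 0 to 4 for P0 to P1 in T-LM, 0 to 1 for P0 to P6 in K-LM, 1 to 3 for P0 to P6 in T-LM, 0 to 1 for P3 to P6 in K-LM and 4 to 5 for P3 to P6 in T-LM. KPT P5 replicate 2 was the sample behind the count of 1 for KPT to K-LM at P5 (8.62% of all probes called without it). The share of all probes called moved in other such runs too. It was 3.2% and 3.69% for P0 to P6 in T-LM without P0 replicates 1 and 2. For P0 to P1 in T-LM it was 8.18% without T-LM P1 replicate 1. With the replicate number as a block the count was 1 for KPT to K-LM at P5 (4.35% of all probes called), 4 for P0 to P1 in T-LM (6.41%) and 0 for P3 to P6 in K-LM (1.27%). That count stayed within 1.5 times in the other comparisons. Whether the numbers pair the samples is not settled. Over 46 same-numbered pairs the correlation of deviations ran from -0.36 to 0.72, with 13 over 0.1. The highest was that of replicate 1 between KPT P5 and T-LM P5. Scaling to the percentile over all probes put the median change of all probes at -0.272 for P0 to P1 in T-LM, against 0.14 as reported, and at -0.218 against 0 for P0 to P6 in T-LM. None of the 59 recomputed changes of single genes changed direction. The smallest of them was 0.84 (Stra6, KPT to T-LM at P6), so shifts of this size could hardly turn one, and their direction does not test the scaling. Aldh1a3, Crabp1, Rarb and Rbp4 were near background in most samples, which limits what their changes can show.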
